A study of Mus musculus with 8 samples.

Results

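Nicotinic acetylcholine receptor subunit genes were read in the developing ventral tegmental area (VTA) of mice exposed to social stress (SS) and of unhandled control (CTR) mice. The 9 genes Chrna2, Chrna3, Chrna4, Chrna5, Chrna6, Chrna7, Chrnb2, Chrnb3 and Chrnb4 were chosen by name and are 9 of the 54735 genes of the count table. All mice were DBA2/J and labelled male. The labels give an age of postnatal day 21, whereas the study's methods place collection on the day after the last exposure. No mouse carried a transgene or deletion according to the labels. CTR litters were left unhandled, and SS pups spent 30 min per day with a threatening adult mouse from postnatal day 14 to 21. Each group had 4 mice with 1 RNA-sequencing library each. The libraries keep the numbers of the labels, which are 1, 2, 3 and 5 for CTR and 2, 3, 4 and 5 for SS, and values are given in that order throughout. The labels do not give litters, and the study's methods allowed more than 1 mouse per litter, so p-values measure the spread between these mice only. Because a punch holds many cell types, fewer cells of a type and less RNA per cell cannot be told apart.

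Nicotinic receptors are cation channels opened by acetylcholine and by nicotine, and each is a ring of subunits around a central pore. In the midbrain, alpha4 and beta2 form the high-affinity nicotine receptor of many neurons, whereas alpha6 and beta3 are known for their restriction to catecholamine neurons, where they join beta2. The alpha5 and beta3 subunits are accessory and do not form channels alone. The alpha7 subunit forms channels of its own kind, and alpha3 with beta4 is the receptor of autonomic ganglia and the medial habenula. Of the 9 genes, Chrnb3 and Chrna6 fell in SS. Chrna4 was at about 53.5% of its CTR mean. It did not pass the main test over all genes (edgeR, adjusted p = 0.092) but passed that of the study's methods (DESeq2, adjusted p = 0.00012). Chrnb2, Chrna7, Chrna3, Chrna5 and Chrnb4 gave no call in either direction by either test. Chrna5 was at 9.75% of its CTR mean at low counts and with overlap, and Chrna2 was too low for the main test.

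The genes lie at 6 loci (GENCODE M21, GRCm38). Chrnb3 (chromosome 8, 27368711 to 27399730, plus strand) and Chrna6 (chromosome 8, 27403212 to 27413944, minus strand) converge on each other with a gap of 3.48 kb. Chrna5 (chromosome 9, 54980880 to 55007779, plus strand), Chrna3 (55010111 to 55026562, minus strand) and Chrnb4 (55028154 to 55048779, minus strand) form the other cluster, with gaps of 2.33 and 1.59 kb. Chrna4 (chromosome 2, 181018380 to 181043546), Chrnb2 (chromosome 3, 89746195 to 89764632), Chrna7 (chromosome 7, 63098692 to 63212569) and Chrna2 (chromosome 14, 66135039 to 66152948) stand alone. No member of a cluster overlapped the exons of another gene. The exons of Chrnb2 overlapped those of Adar on the other strand over 1365 bp. As no source states whether strand was used in counting, it is not known how reads of that stretch were counted. This also bears on the level of Chrnb2 per kb.

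**Figure D1:**
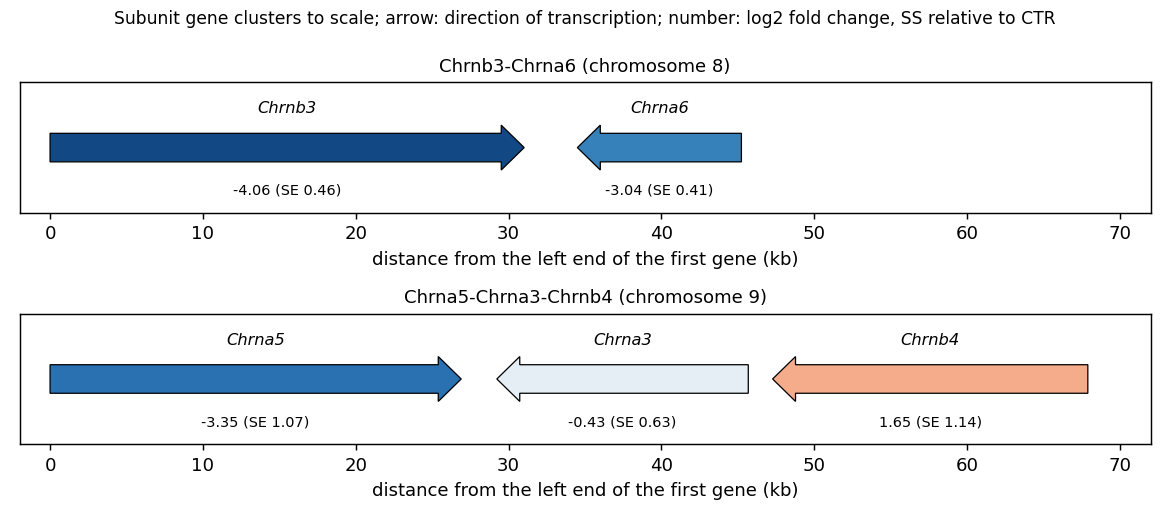
Both subunit gene clusters drawn to scale, with the x axis in kb from the left end of the first gene, arrows pointing in the direction of transcription and coloured by log2 fold change (SS relative to CTR, edgeR, with SE). Both genes of the Chrnb3-Chrna6 pair are lower in SS (-4.06 and -3.04), while the values of the Chrna5-Chrna3-Chrnb4 cluster run from -3.35 to 1.65. No gene of the latter cluster was called, and these ends of the range have SEs of 1.07 (Chrna5) and 1.14 (Chrnb4) at low counts.

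RefSeq promoter entries (GRCm38.p6) were matched for 6 of the 9 genes, with 7 start sites. Chrna2, Chrna6 and Chrnb3 were not matched. The 250 bases before a start site are shown for Chrna4 and Chrnb2, partners in a receptor. Their transcript ratio did not overlap between the groups, without passing the correction over pairs. The same stretch is shown for the cluster neighbours Chrna5 and Chrna3. Neither was called in edgeR, and their ratio overlapped between the groups. Capitals mark GGGCGG or its reverse complement, the letters of the GC box.
Chrna4, chr2:181039178-181039427, minus strand: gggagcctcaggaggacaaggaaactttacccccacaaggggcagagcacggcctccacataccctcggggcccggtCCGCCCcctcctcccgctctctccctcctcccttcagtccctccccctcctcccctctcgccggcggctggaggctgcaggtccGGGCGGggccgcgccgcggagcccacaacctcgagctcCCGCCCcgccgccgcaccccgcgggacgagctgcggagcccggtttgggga
Chrnb2, chr3:89764633-89764882, minus strand: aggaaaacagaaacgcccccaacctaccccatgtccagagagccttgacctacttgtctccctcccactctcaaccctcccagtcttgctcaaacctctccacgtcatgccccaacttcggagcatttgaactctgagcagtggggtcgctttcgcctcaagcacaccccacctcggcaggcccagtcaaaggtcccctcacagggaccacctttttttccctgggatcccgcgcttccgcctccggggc
Chrna5, chr9:54981238-54981487, plus strand: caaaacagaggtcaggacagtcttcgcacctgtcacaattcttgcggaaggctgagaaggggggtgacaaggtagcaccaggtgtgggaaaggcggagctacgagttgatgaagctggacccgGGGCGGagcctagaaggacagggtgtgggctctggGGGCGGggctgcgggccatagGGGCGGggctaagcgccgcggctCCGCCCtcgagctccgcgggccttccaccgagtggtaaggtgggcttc
Chrna3, chr9:55026563-55026812, minus strand: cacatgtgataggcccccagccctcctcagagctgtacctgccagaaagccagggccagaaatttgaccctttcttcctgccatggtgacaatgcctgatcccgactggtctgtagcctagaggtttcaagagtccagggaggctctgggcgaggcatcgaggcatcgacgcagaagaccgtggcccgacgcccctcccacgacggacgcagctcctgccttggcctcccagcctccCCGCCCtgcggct
GGGCGG occurred 3 times before Chrna4, 4 times before this start of Chrna5, 1 time before Chrna3 and 1 time before Chrna7. It was not found before Chrnb2, Chrnb4 or the other start of Chrna5 (chr9:54980630-54980879). Of all 32851 RefSeq windows of the same length, 32.7% held it on either strand. The GC content was 74.4% before Chrna4 and 40% before the other start of Chrna5, the highest and the lowest of the 7 windows. A further 6 motifs were searched on both strands and were not in these 7 windows. They were AAAGGTCA (in 1.34% of all windows), TAATCC (in 6.25% of all windows), TAATTA (in 4.84% of all windows), GTAAACA (in 3.17% of all windows), TATAAA (in 12.4% of all windows) and TGACGTCA (in 1.55% of all windows). As GGGCGG alone matched, no matches of different motifs overlapped, and a match of letters is a description only.

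Library totals ranged from 20036086 to 47319997 counts. Values are given as CPM, counts scaled to a common library size and normalized with edgeR's TMM method, and 3 counts, the limit that a count of 0 allows, correspond to 0.0622 to 0.155 CPM (counting error only). CTR-5 and SS-5 went against the label of sex, with 14997 and 6551 counts of Xist, compared with 0 to 3 in the other libraries, and with 3 and 0 counts of 4 Y-linked genes, compared with 2293 to 7892. The main comparisons are therefore also given without these 2 libraries, as 3 against 3. The labelled tissue was checked by its dopamine neuron markers (Th, Slc6a3, Slc18a2, Ddc, Pitx3 and En1), of which all 6 had counts in CTR. Their summed level was 645 to 1639 CPM in CTR and 67.9 to 112 CPM in SS, and 5 of the 6 were called lower. In SS, Pitx3 had 9, 0, 0 and 13 counts, and the other markers had counts in each library.

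Groups were compared with edgeR's quasi-likelihood test and p-values were adjusted by Benjamini-Hochberg across all 16538 genes left by the filter on low counts. This called 14 of them (0.0847%), all lower in SS, at an adjusted p under 0.05. Of the 9 subunit genes, 8 passed the filter and Chrna2 did not. Of these 8, Chrnb3 and Chrna6 were called and 5 were lower in SS, compared with 49.4% of all tested genes, and the median log2 fold change was -0.67 compared with 0.0037 over all tested genes. At an unadjusted p under 0.05, 4 of the 8 were lower and none higher, compared with 3.70% and 2.85% of all tested genes (6.55% in either direction). The 4 include Chrna5 (edgeR unadjusted p = 0.0087), whose presence among the tested genes is not independent of its difference, as given below. Chrna5 also enters the median. As the members were chosen with earlier results of these data known, these shares are a description only. The libraries of the groups did not overlap for Chrna4, Chrna6 and Chrnb3, each lower in SS, compared with 2.21% of all tested genes lower, 2.47% higher and 4.67% in either direction.

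Chrnb3 encodes the accessory beta3 subunit. Its level was 83.2, 43.3, 33.7 and 65.9 CPM in CTR, and 1.55, 1.64, 4.97 and 5.74 CPM in SS. Every SS library lay far below the lowest CTR library, and SS-4 and SS-5 held more than SS-2 and SS-3. The mean fell from 56.5 ± 22.3 to 3.48 ± 2.19 CPM (SD, n = 4 each), that is to 6.15% of the CTR level. The log2 fold change was -4.06 (SE 0.46, adjusted p = 0.0045, edgeR). Chrnb3 passed the threshold in each of the 8 edgeR fits that left out 1 library, with log2 fold changes from -4.42 to -3.80. Without CTR-5 and SS-5 the value was -4.33 (adjusted p = 0.037).

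Chrna6 encodes the alpha6 subunit, which binds acetylcholine together with its beta partner. Its level was 71.5, 44.8, 31.9 and 72.02 CPM in CTR and 4.88, 4.54, 3.95 and 13.6 CPM in SS. The groups did not overlap, and SS-5 stood above the other 3 SS libraries. The mean fell from 55.1 ± 19.98 to 6.75 ± 4.603 CPM (SD, n = 4 each), to 12.3% of the CTR level. The log2 fold change was -3.04 (SE 0.41, adjusted p = 0.020, edgeR), and it was -3.46 without CTR-5 and SS-5 (adjusted p = 0.0097). The call was lost without SS-2 (adjusted p = 0.12), without SS-3 (0.11) and without SS-4 (0.15), while the log2 fold change over the 8 fits without 1 library stayed between -3.62 and -2.86.

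Chrna4 and Chrnb2 encode the subunits of the widespread alpha4 and beta2 receptor. Chrna4 was at 139, 91.9, 112 and 163 CPM in CTR and at 74.3, 66.7, 69.9 and 59.6 CPM in SS. No SS library reached the lowest CTR library, and the SS libraries were close to each other. The mean was 126 ± 31.0 CPM for CTR compared with 67.6 ± 6.18 CPM for SS (SD, n = 4 each). This was a log2 difference of -0.90 (SE 0.16, edgeR adjusted p = 0.092). DESeq2 with default options, the test of the study's methods, called Chrna4 (adjusted p = 0.00012) beside Chrna6 and Chrnb3, where it called 0.419% of 19349 genes (0.310% lower in SS). In edgeR, Chrna4 was also called with the bias-adjusted estimate (adjusted p = 0.026), without a filter on low counts (0.046) and without CTR-2 (0.029). It was not called in the other 7 fits without 1 library, over which its adjusted p reached 0.41. Without CTR-5 and SS-5 its log2 fold change was -0.70 (adjusted p = 0.25).

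Chrnb2 was at 98.4, 82.8, 102.3 and 93.8 CPM in CTR and at 104, 97.0, 95.5 and 104 CPM in SS. The groups overlapped, and the libraries of either group differed little. The mean was 94.3 ± 8.43 CPM for CTR compared with 100.2 ± 4.67 CPM for SS (SD, n = 4 each). The log2 difference between the groups was 0.09 (SE 0.10, edgeR adjusted p = 0.89), and 0.07 without CTR-5 and SS-5. Chrnb2 had the smallest SE of the 8 tested subunits.

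The remaining genes were low or variable. Chrna7, the subunit of the alpha7 receptor, was at 3.93, 11.3, 17.1 and 20.7 CPM in CTR and at 15.8, 20.6, 18.7 and 13.02 CPM in SS, with overlapping groups. CTR-1 was well below the other libraries. The log2 fold change of Chrna7 was 0.35 (SE 0.38, adjusted p = 0.88, edgeR), and it was 0.06 without CTR-1 and 0.76 without CTR-5 and SS-5.

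In the Chrna5-Chrna3-Chrnb4 cluster no gene passed the threshold over all genes in edgeR. Chrna5, an accessory subunit, had 74, 57, 1 and 166 counts in CTR and 9, 9, 5 and 11 counts in SS, that is 3.82, 2.30, 0.0432 and 4.23 CPM and 0.215, 0.187, 0.188 and 0.424 CPM. The other 3 CTR libraries lay above every SS library, but CTR-3 lay below them all. The log2 fold change was -3.35 (SE 1.07, adjusted p = 0.70, edgeR), and without CTR-3 it was -3.76 (adjusted p = 0.18). Over the 8 fits without 1 library the adjusted p of Chrna5 ran from 0.18 to 0.999. Without CTR-5 and SS-5 Chrna5 did not pass the filter on low counts. DESeq2 gave Chrna5 an adjusted p of 0.068 over all libraries and of 1.4e-06 without CTR-3. Chrna5 passed the filter through CTR-1, CTR-2, CTR-5 and SS-5, so its presence among the tested genes is not independent of its difference.

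Chrna3 was at 1.55, 4.202, 5.49 and 3.44 CPM in CTR and at 1.46, 0.788, 2.67 and 6.05 CPM in SS. SS-5 held the most of all libraries, and the groups overlapped. The log2 fold change of Chrna3 was -0.43 (SE 0.63, adjusted p = 0.91, edgeR), compared with -1.16 without SS-5 and -1.20 without CTR-5 and SS-5. Chrnb4, the partner of alpha3, had 0, 37, 3 and 39 counts in CTR and 76, 47, 19 and 126 counts in SS. These are 0, 1.49, 0.130 and 0.993 CPM in CTR and 1.82, 0.975, 0.716 and 4.85 CPM in SS, with overlapping groups and SS-5 again the highest. The log2 fold change of Chrnb4 was 1.65 (SE 1.14, adjusted p = 0.80, edgeR), compared with 0.83 without SS-5, 2.40 without CTR-2 and 1.09 without CTR-5 and SS-5. Chrna2 was counted 30 times in CTR-2, 3 times in CTR-5, 11 times in SS-3 and not at all in the other 5 libraries, so no fold change is given for it.

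**Figure D2:**
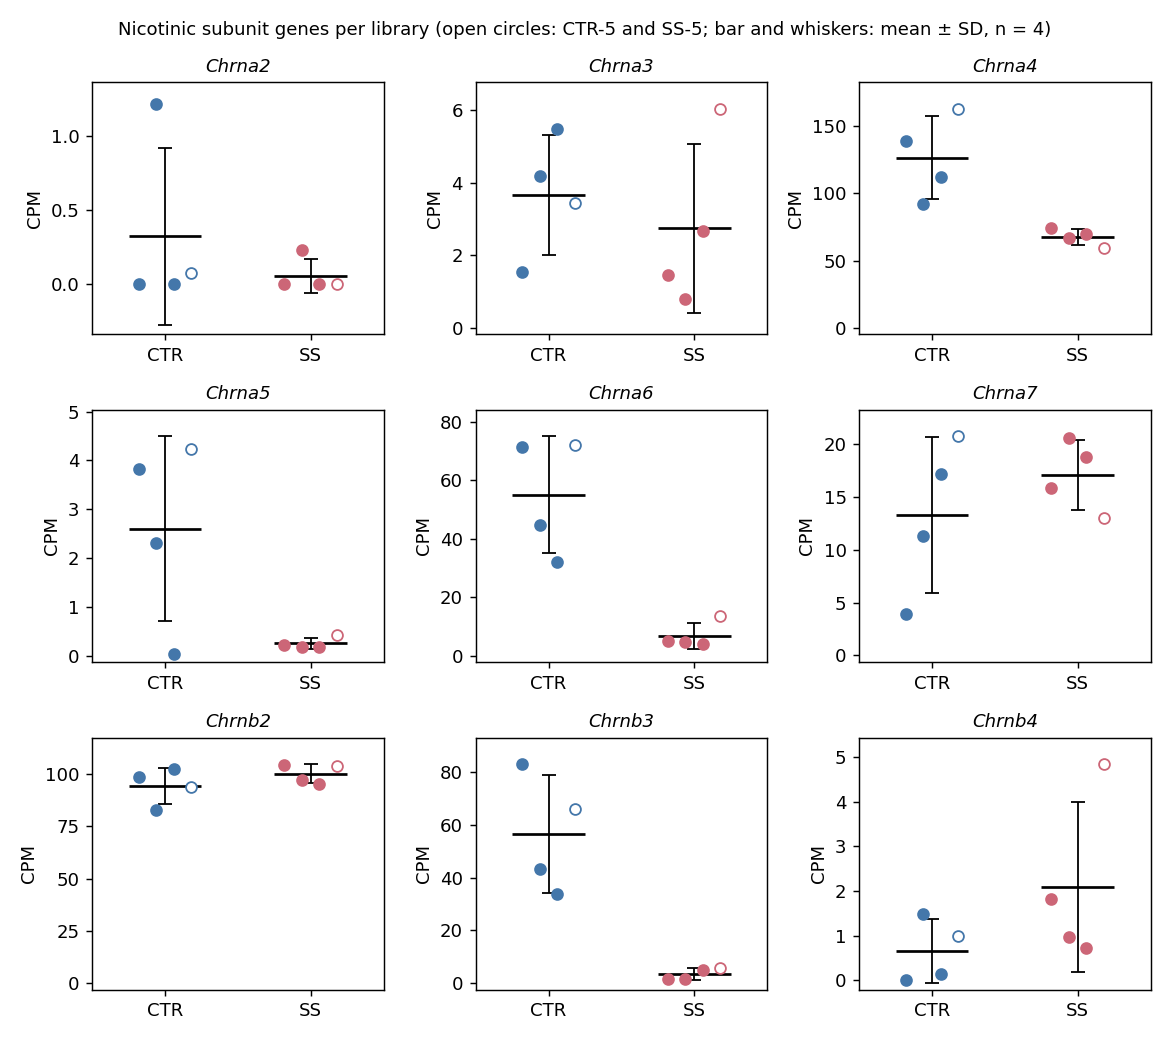
CPM (y axis, linear) of each of the 9 subunit genes in the 4 CTR (blue) and 4 SS (red) libraries, with the mean and SD of each group and CTR-5 and SS-5 as open circles. Chrna4, Chrna6 and Chrnb3 show groups that do not overlap, whereas Chrnb2 stays between 82.8 and 104 CPM in all 8 libraries.

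**Figure D3:**
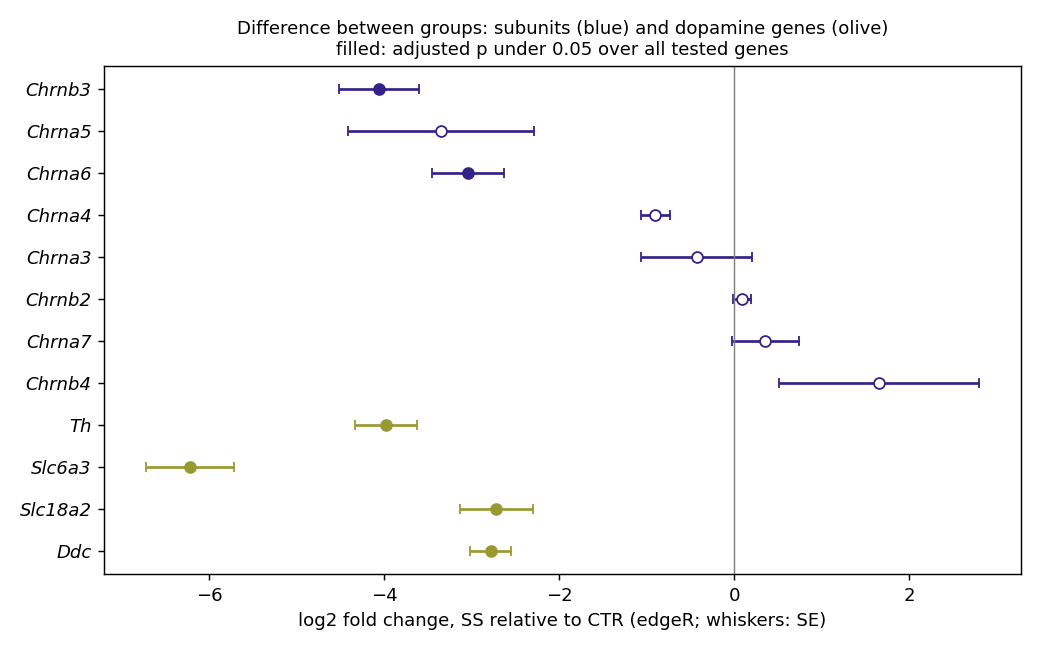
Log2 fold change (x axis, SS relative to CTR, edgeR) with its SE for the 8 tested subunit genes (blue) and for 4 dopamine genes (olive), filled where the adjusted p over all tested genes is under 0.05. Chrnb3 and Chrna6 lie in the range of the dopamine genes, which runs from -6.22 (Slc6a3) to -2.72 (Slc18a2), and Chrnb2 lies near 0.

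Levels of different genes were compared per kb of exon, since a longer transcript collects more reads. In CTR the order was Chrna4 (25.2 ± 6.17 CPM per kb), Chrna6 (18.9 ± 6.87), Chrnb2 (11.3 ± 1.01), Chrnb3 (8.88 ± 3.50), Chrna7 (2.94 ± 1.63), Chrna5 (0.832 ± 0.606), Chrna3 (0.697 ± 0.313), Chrnb4 (0.176 ± 0.191) and Chrna2 (0.0851 ± 0.157; SD, n = 4). Only Chrnb3 and Chrna7 were neighbours in this order without overlap between libraries, although Chrna4 was above Chrna6 within each of the 4 CTR libraries. In SS the order was Chrna4 (13.5 ± 1.23 CPM per kb), Chrnb2 (11.96 ± 0.557), Chrna7 (3.78 ± 0.738), Chrna6 (2.32 ± 1.58), Chrnb4 (0.561 ± 0.511), Chrnb3 (0.546 ± 0.344), Chrna3 (0.521 ± 0.444), Chrna5 (0.0811 ± 0.0365) and Chrna2 (0.0151 ± 0.0301). Here Chrnb2 and Chrna7, Chrna6 and Chrnb4, and Chrna3 and Chrna5 did not overlap. Chrna6 and Chrnb3 thus moved from the second and the fourth place in CTR to the fourth and the sixth in SS. With the longest transcript as length, the CTR order was the same. In SS, Chrnb2 then stood above Chrna4, and Chrnb3 (0.757 CPM per kb) stood above Chrna3 (0.629) and Chrnb4 (0.561). With CTR-5 and SS-5 left out, Chrnb3 likewise stood above Chrnb4 in SS, and Chrna3 stood above Chrna5 in CTR.

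The sum over the 9 genes was 79.5, 55.2, 55.7 and 85.6 CPM per kb in CTR and 33.5, 31.8, 32.4 and 35.4 CPM per kb in SS. Chrna6 made up 19.7 to 30.9% of this sum in CTR and 4.203 to 13.3% in SS. Chrnb3 made up 9.52 to 16.4% and 0.728 to 2.55%. The shares of both genes did not overlap between the groups. The share of Chrna4 was 36.5 ± 3.05% in CTR and 40.6 ± 4.802% in SS, with overlap, as its level and the sum were both lower in SS. Chrnb2 took 13.1 to 21.9% in CTR and 35.1 to 37.2% in SS at nearly the same level per kb, and Chrna7 took 1.097 to 6.84% and 8.17 to 14.4%. The CPM of both genes overlapped between groups while the sum was lower in SS, so their larger shares do not show a rise in level. Leaving out CTR-5 and SS-5 cannot make the shares of Chrna6, Chrnb3, Chrnb2 and Chrna7 overlap. Without these libraries, Chrna6 made up 4.203 to 5.01% and Chrnb3 0.728 to 2.41% in SS. The share of Chrna4 then no longer overlapped, at 33.2 to 40.0% in CTR and 41.8 to 44.1% in SS.

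**Figure D4:**
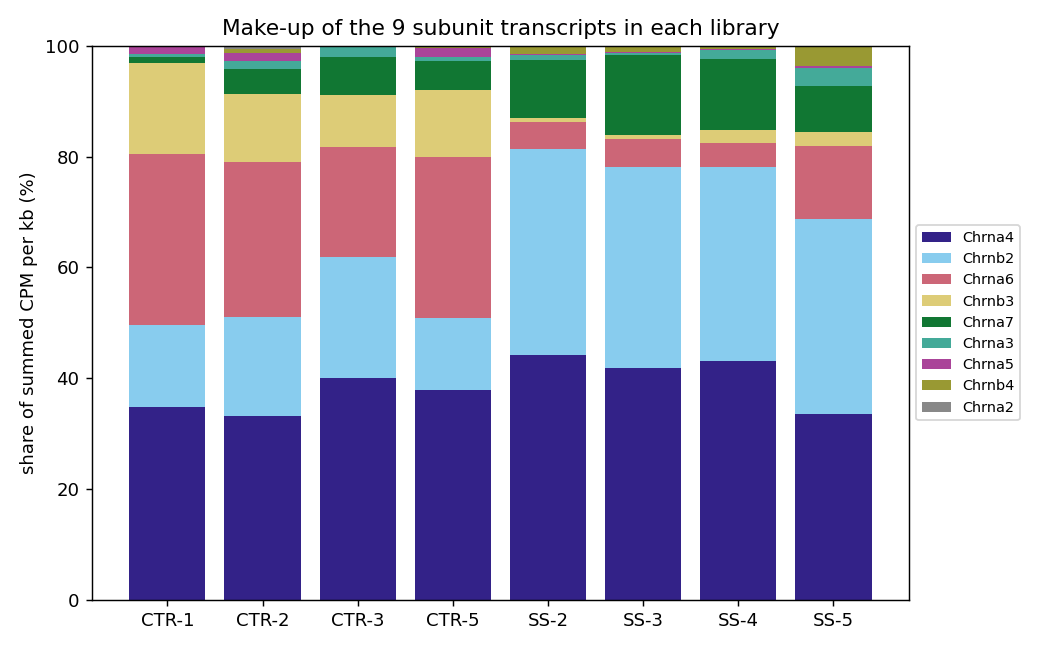
Share of each subunit gene in the summed CPM per kb of the 9 genes (y axis, %) in each library. Chrna6 and Chrnb3 together fill a wide band in the CTR libraries and a narrow band in the SS libraries, widest in SS-5, where Chrna6 holds 13.3%.

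Whether subunits changed by unequal amounts was tested on the log2 ratio of their CPM within each library (prior count 2), which does not depend on library size. All 28 pairs of the 8 subunit genes with a mean of at least 1 CPM were tested with the exact permutation test (two-sided, 70 assignments of libraries to groups), which cannot give a p below 0.029. The ratio did not overlap between groups in 13 pairs, each with exact p = 0.029, and the adjusted p over the 28 pairs was 0.062 for each, so no pair passed the correction. Apart from Chrna4/Chrna7, Chrna4/Chrnb2 and Chrna5/Chrnb4, all of them hold Chrna6 or Chrnb3, which were lower in SS on their own. Chrna4 was likewise lower in every SS library on its own, whereas Chrna7 and Chrnb2 overlapped. The share over pairs of other genes was not computed, so the count is no result about the subunits. Leaving out CTR-5 and SS-5 cannot make these 13 pairs overlap, so it is no further test of them. With 3 against 3 libraries the test cannot give a p below 0.10.

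These ratios are of CPM without regard to length, so they compare groups and not the levels of the genes of a pair. Within the Chrnb3-Chrna6 cluster, the log2 ratio of Chrna6 to Chrnb3 was -0.22, 0.05, -0.08 and 0.13 for CTR and 1.61, 1.44, -0.33 and 1.24 for SS. The CTR ratios were close together, and SS-4 was the SS library with the lowest ratio. Per kb, Chrna6 was above Chrnb3 in each of the 8 libraries. The mean difference of the log2 ratio was 1.02 (SE 0.45, exact permutation p = 0.14, adjusted p = 0.21), and 0.99 without CTR-5 and SS-5, with overlap in both cases.

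Within the Chrna5-Chrna3-Chrnb4 cluster the ratio of Chrna5 to Chrnb4 was 1.92 ± 2.91 in CTR and -2.44 ± 0.75 in SS on the log2 scale (SD, n = 4 each), without overlap between groups (exact permutation p = 0.029, adjusted p = 0.062). That of Chrna3 to Chrnb4 went from 3.17 ± 1.83 to 0.38 ± 0.99 (exact permutation p = 0.086, adjusted p = 0.15), and that of Chrna3 to Chrna5 from 1.24 ± 3.09 to 2.82 ± 0.88 (exact permutation p = 0.37, adjusted p = 0.43). In the 6 libraries without CTR-5 and SS-5 the differences of the 3 log2 ratios were -4.03, -3.24 and 0.79. The wide CTR spread of these ratios goes with the single count of Chrna5 in CTR-3 and the 0 and 3 counts of Chrnb4 in CTR-1 and CTR-3. Chrna5 met the cut of 1 CPM only through the CTR libraries, as its SS average was 0.253 CPM. Chrnb4 met it only through the SS libraries, as its CTR average was 0.654 CPM. The choice of this pair is therefore not independent of the difference in its ratio, and its p-value is no result about these genes.

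Between loci, the log2 ratio of Chrna4 to Chrnb2 was 0.50, 0.15, 0.13 and 0.80 in CTR and -0.49, -0.54, -0.45 and -0.80 in SS. Every SS ratio was below every CTR ratio, with a difference of -0.96 (SE 0.18, exact permutation p = 0.029, adjusted p = 0.062), and of -0.75 without CTR-5 and SS-5. As Chrna4 was lower in every SS library on its own and Chrnb2 overlapped, this ratio is no result separate from the level of Chrna4. The ratio of Chrna4 to Chrna6 was 1.24 ± 0.39 in CTR and 3.50 ± 0.93 in SS on the log2 scale, without overlap (exact permutation p = 0.029, adjusted p = 0.062), and was thus 4.79-fold higher in SS. The difference of this log2 ratio was 2.70 without CTR-5 and SS-5.

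The subunits were then set against 4 genes of dopamine neurons in the same libraries, namely Th (tyrosine hydroxylase), Slc6a3 (the dopamine transporter), Slc18a2 (the vesicular monoamine transporter) and Ddc (dopa decarboxylase). As these 4 genes were themselves far lower in SS, the ratio of nearly any gene to them separated the groups. It did not overlap for 95.8% of the other tested genes against Th, 99.5% against Slc6a3, 88.2% against Slc18a2 and 92.3% against Ddc. Of the 32 subunit ratios, 24 did not overlap (exact permutation p = 0.029, adjusted p = 0.038 over the 32), which is no more than over all genes and is no result about the subunits. The 8 ratios that overlapped were those of Chrna3, Chrna5, Chrna6 and Chrnb3 to Slc18a2, of Chrna3, Chrna5 and Chrna6 to Ddc, and of Chrnb3 to Th.

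Chrna6 relative to Slc18a2 was at a log2 ratio of -1.41, -1.15, -1.51 and -1.81 in CTR and of -1.70, -1.91, -2.07 and -1.77 in SS. The ranges overlapped, and the difference of -0.39 (SE 0.16) was small beside the fall of either gene (exact permutation p = 0.086, adjusted p = 0.098). SS-5, the highest SS library for Chrna6, was also the highest for Slc18a2, at 46.6 CPM compared with 15.9 to 17.2 CPM in the other 3. Without CTR-5 and SS-5 the difference was -0.53 and the groups did not overlap. The ratio of Chrna6 to Ddc differed by -0.42 (SE 0.46, exact permutation p = 0.49, adjusted p = 0.54), and by -0.83 without overlap when CTR-5 and SS-5 were left out. Against Th, the log2 ratio of Chrna6 was higher in SS by 0.74 (SE 0.29, exact permutation p = 0.029, adjusted p = 0.038), and against Slc6a3 by 3.17 (SE 0.38, with the same p). These differences were 0.56 and 3.12 without CTR-5 and SS-5. Against Th and Slc6a3 the groups did not overlap for 95.8% and 99.5% of the other tested genes either. Those p-values are therefore no result about Chrna6.

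Chrnb3 relative to Th was at a mean log2 ratio of -2.25 ± 0.26 in CTR and -2.53 ± 0.87 in SS (SD, n = 4 each), a difference of -0.28 (SE 0.45, exact permutation p = 0.57, adjusted p = 0.61). Relative to Slc18a2 its difference was -1.41 (SE 0.42, exact permutation p = 0.057, adjusted p = 0.068), with overlap. Its ratio to Ddc was -1.79, -1.90, -1.84 and -1.87 in CTR and -4.30, -4.21, -2.48 and -2.19 in SS. This ratio was nearly the same in all CTR libraries and lower in every SS library, by 1.44 on average (SE 0.56, exact permutation p = 0.029, adjusted p = 0.038). Relative to Slc6a3, Chrnb3 went from -2.97 ± 0.17 to -0.81 ± 0.20 on the log2 scale, a shift of 2.15 (SE 0.13, exact permutation p = 0.029, adjusted p = 0.038) with little spread in either group. Once CTR-5 and SS-5 were left out, the differences of Chrnb3 were -0.43 against Th, with overlap, and -1.52 against Slc18a2, -1.82 against Ddc and 2.13 against Slc6a3, each without overlap. Against Ddc and Slc6a3 the groups were already without overlap over all libraries, as for 92.3% and 99.5% of the other tested genes. Those p-values are therefore no result about Chrnb3.

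**Figure D5:**
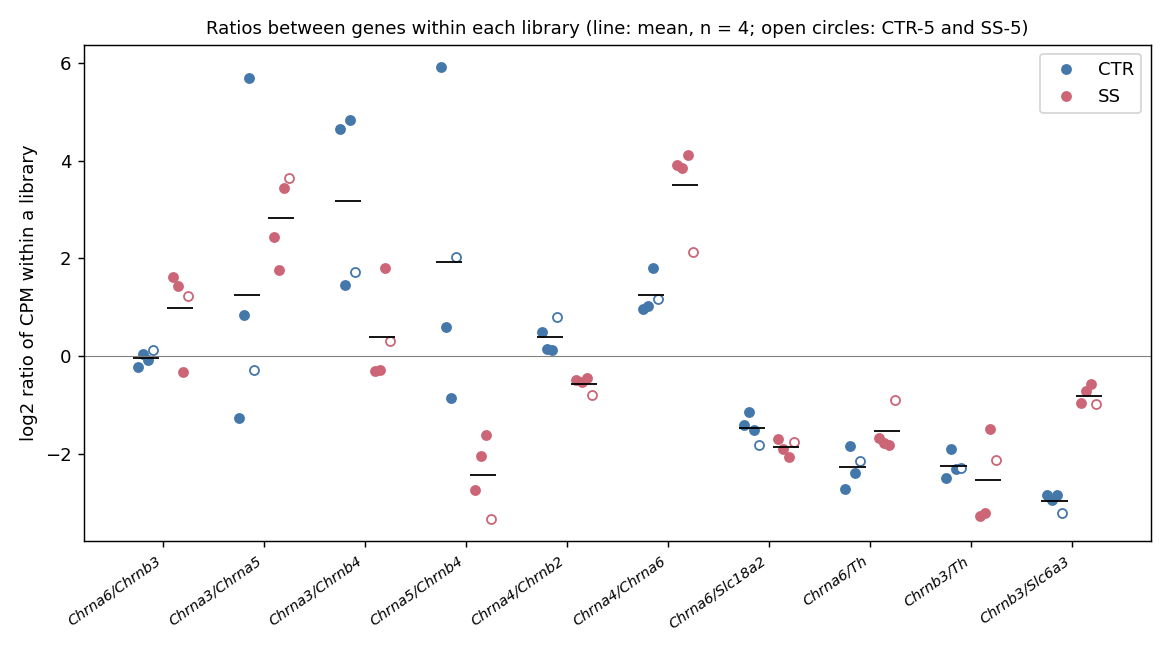
Log2 ratio of CPM between named genes within each library (y axis) in CTR (blue) and SS (red), with group means as lines and CTR-5 and SS-5 as open circles. Chrna6/Slc18a2 and Chrnb3/Th overlap between groups, whereas Chrna4/Chrnb2, Chrna4/Chrna6 and Chrnb3/Slc6a3 do not. Ratios to Slc6a3 did not overlap for 99.5% of the other tested genes.

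The other nicotinic genes were nearly silent. Of the 7 further subunits, 6 were below the filter, with Chrnd and Chrng at 0 in all libraries. Chrnb1, the muscle beta subunit, had 0.232 ± 0.307 CPM for CTR and 0.638 ± 0.282 CPM for SS (SD, n = 4 each). The log2 difference between the groups was 1.44 (SE 1.31, edgeR adjusted p = 0.86). Of 13 genes for assembly or modulation of nicotinic receptors, 11 were tested, 9 had a negative and 2 a positive log2 fold change (49.4% of all tested genes were negative). None was called at an adjusted p under 0.05 in edgeR, while 2 had an unadjusted p under 0.05, compared with 6.55% of all tested genes. The median log2 fold change was -0.17. These 2 were Vsnl1, a calcium sensor protein, with -0.32 (SE 0.11, adjusted p = 0.75), and Ywhah, a 14-3-3 protein, with -0.21 (SE 0.08, adjusted p = 0.75). The assembly chaperones Ric3 and Tmem35a had values of 0.04 (SE 0.13) and -0.25 (SE 0.13), with adjusted p-values of 0.96 and 0.76. DESeq2 called none of the 13 genes either.

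Markers of other cells that can hold these receptors were read beside the subunits, and their part in the results was not tested. Over all tested genes, 49.4% had a negative log2 fold change and 6.55% an unadjusted p under 0.05 in edgeR. Every SS library lay above every CTR library for 2.47% of them. Cholinergic neuron genes (Chat, Slc18a3 and Slc5a7) summed to 3.56 to 6.72 CPM in CTR and 2.45 to 9.09 CPM in SS. Of the 5 medial habenula markers 4 were tested, all with a negative log2 fold change and none called in edgeR (1 at an unadjusted p under 0.05). The medial habenula sums were 70.4 to 143 CPM in CTR and 58.03 to 113 CPM in SS. GABA neuron genes summed to 413 to 459 CPM in CTR and 356 to 550 CPM in SS, and glutamate neuron genes to 348 to 772 and 448 to 503 CPM. Of the latter, Slc17a7, a vesicular glutamate transporter, varied widely, at 13.9, 243, 56.9 and 403 CPM in CTR and 37.9, 37.03, 21.5 and 64.5 CPM in SS, with overlap (log2 difference -2.16, edgeR unadjusted p = 0.014, adjusted p = 0.74). The other glutamate marker, Slc17a6, went the other way, from a mean of 386 CPM in CTR to 443 CPM in SS, with overlap. Its log2 difference was 0.20 (edgeR unadjusted p = 0.054, adjusted p = 0.75). Mammillary and hypothalamic markers summed to 77.8 to 171 CPM in CTR and 145 to 194 CPM in SS, with 6 of 7 positive and none called in edgeR. Among them Pmch, which encodes melanin-concentrating hormone, was higher in every SS library than in any CTR library, at 37.4 ± 8.68 compared with 6.36 ± 7.40 CPM (SD, n = 4 each, adjusted p = 0.61, edgeR). Interpeduncular markers summed to 54.6 to 109 and 59.8 to 105 CPM, and among them Otp also showed no overlap, at 5.61 ± 3.39 compared with 0.832 ± 0.712 CPM (SD, n = 4 each, adjusted p = 0.70, edgeR), while Sst and Pax7 overlapped. For astrocytes, oligodendrocytes, microglia and endothelium edgeR called no marker, and 1 microglial marker had an unadjusted p under 0.05. This was Cx3cr1, lower in SS (log2 difference -0.28, edgeR unadjusted p = 0.042, adjusted p = 0.75).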

How the data were processed

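RNA of bilateral VTA punches was sequenced with 1 library per mouse, 4 CTR and 4 SS. After trimming (Cutadapt) and alignment to mm10 (STAR), the authors ran htseq-count with the annotation of Ensembl release 102 and deposited the raw counts of each gene without normalization. The strand setting is not stated, and reads assigned to no gene are not in the table.

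Counts were analysed in R 4.3.3. Genes passed filterByExpr of edgeR 4.0.16 (minimum count 10, minimum total 15), libraries were normalized with TMM, and SS was compared with CTR by glmQLFit and glmQLFTest at their defaults with the group as the only term. Alternatives were DESeq2 1.42.0, limma 3.58.1 voom, other scalings and filters, each library left out, a replicate block, and fits that account for CTR-5 and SS-5. Ratios of log2 CPM used a prior count of 2 and the difference of group means as statistic. SEs of fold changes were taken from edgeR's F statistic, those of ratios from both group variances. Lengths came from GENCODE M21 (union of exons), which is not the authors' annotation release. The scripts were tested on simulated data.

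The members, the lists and the rule for named genes were chosen with earlier results of these data known. Named are the 9 members, the 4 dopamine genes, called or singled-out list members, overlapping genes and the 3 genes most alike to each member. Cx3cr1, Gpr151, Otp, Pmch, Slc17a6, Slc17a7, Vsnl1 and Ywhah were named after their values were seen. Some items are not reported here.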

Additional observations from a re-analysis of the deposited data

Results flagged for a closer look

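The CPM of the 9 genes were searched for single libraries that stood apart from their group, by the distance of an extreme library to the next relative to the whole spread (Dixon's ratio). Of 18 groups of 4 libraries, 4 passed the 95% limit, where chance gives about 0.9. For Chrna6 this was SS-5, at 13.6 CPM with a ratio of 0.905, and for Chrna5 it was SS-5 too, at 0.424 CPM with a ratio of 0.880. For Chrna2, the flagged libraries were CTR-2 (1.21 CPM, ratio 0.937) and SS-3 (0.228 CPM, ratio 1), each with a gene that was at 0 in most other libraries. Without SS-5 the log2 fold change of Chrna6 was -3.62 and that of Chrna5 was -3.69.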

How the results depend on the processing

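The log2 fold changes of the 8 tested subunit genes kept their direction under all alternatives in which they were tested. The number of subunits called, 2, was 3 (with Chrna4) by DESeq2, with edgeR's bias-adjusted estimate and without a filter on low counts, 1 at an adjusted p under 0.01, and 1 to 3 with each library left out (1 without SS-2, SS-3 or SS-4). With DESeq2, fits added after the data were seen that left out each library gave 3 to 4, with Chrna5 as the fourth gene without CTR-3. Of all tested genes, 14 were called, compared with 81 by DESeq2, 27 with edgeR's bias-adjusted estimate, 22 without a filter on low counts, 22 with a mean count of at least 50, 7 at an adjusted p under 0.01, 9 without CTR-5 and SS-5, and 6 to 19 with each library left out. The replicate numbers 2, 3 and 5 are shared by both groups, but same-numbered libraries did not deviate together (correlations of -0.0062, -0.0077 and 0.060), and all 3 SS libraries correlated best with CTR-5. With the number as a block, the 6 libraries gave 9 calls and 2 subunits, compared with 7 calls and 1 subunit in the same libraries without the block, a fit added after the data were seen. Among the pairs of subunits, 0 passed the correction. With each library left out the count was also 0, except without CTR-3, where 16 pairs were counted. The smallest p that the exact test allows there puts these 16 pairs at the threshold and not under it. They are therefore not taken as passing. The ratios to dopamine genes could not be tested without CTR-5 and SS-5, nor could the pairs, since 3 against 3 libraries cannot reach the threshold. With the longest transcript as length, the level per kb was 14.8 for Chrna4 in SS, 4.71 and 6.05 for Chrna7 in CTR and SS, and 14.7 and 15.7 for Chrnb2 in CTR and SS. For genes under about 5 CPM (Chrna2, Chrna3, Chrna5 and Chrnb4) depth limits the values. The causes of these changes were not tested.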

Other observations

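For each subunit gene with a mean of at least 1 CPM, up to 3 of the tested genes with the highest Pearson r of log2 CPM over the 8 libraries after subtraction of the group means were listed, as a description. For Chrnb3 the first was Slc6a3 (r = 0.97), followed by Ntn1 (0.96) and Dgat1 (0.96). For Chrna6 they were Il3ra (0.97), Mas1 (0.96) and Med10 (0.96), and for Chrna4 Nrep (0.99), Mapk14 (0.98) and Ift74 (0.98). For Chrnb2 they were Ccdc51 (0.995), Nos2 (0.99) and Rasgrp4 (0.98), and for Chrna7 AW549877 (0.99) and Pik3c2a (0.99). For Chrna3 they were Vwa5b1 (0.98), Rangap1 (0.96) and Frmd7 (0.96), for Chrna5 AU022754 (0.99), Gm6297 (0.98) and Gm17597 (0.98), and for Chrnb4 Tgfbr1 (0.98), Yap1 (0.98) and Cdk5r1 (0.98). These are among the highest of 16538 values over 8 libraries that share the same depth differences. The corresponding r of Chrna6 with Chrnb3 was 0.65.

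The nearest tested protein-coding genes beside the clusters were also read, chosen after the data were seen. Left of Chrnb3, Eif4ebp1 at 92.0 kb gave a log2 difference of 0.08 (SE 1.05, edgeR adjusted p = 0.99), and right of Chrna6, Unc5d at 1233 kb had one of 0.41 (SE 0.20, adjusted p = 0.75). Beside the Chrna5-Chrna3-Chrnb4 cluster, Psma4 at 22.9 kb had one of -0.33 (SE 0.13, adjusted p = 0.75) and Ube2q2 at 100.1 kb one of 0.19 (SE 0.12, adjusted p = 0.79).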
